A study of Homo sapiens with 10 samples.

Results

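A set of 10 genes that mark the epithelial-mesenchymal transition was followed across 10 arrays of the human lung adenocarcinoma line A549 and the lung lines AD32 and AD32 4E-BP1. They were the transcription factors SNAI1, SNAI2, ZEB1, ZEB2 and TWIST1 and the mesenchymal markers VIM, CDH2, FN1, ACTA2 and TAGLN. Their probe sets were taken from the platform annotation, which named 18279 genes with a probe set of their own, and all 10 had one. The study compared lines and treatments that differ in their response to the microtubule-stabilising natural product discodermolide.

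The groups were 4 arrays of A549 in 0.01% DMSO, labelled sensitive; 2 arrays of A549 in 32 nM discodermolide, labelled senescent; 3 arrays of AD32 grown in 32 nM discodermolide, labelled resistant; and 1 array of AD32 4E-BP1 in 0.01% DMSO, labelled sensitive. All were grown in RPMI with 10% FBS at 37 C and 7% CO2. AD32 was in the drug and A549 in DMSO was not, so line and drug cannot be told apart in that comparison. The numbered samples are called biological replicates without a word on how they were grown apart, so p-values measure the spread between these samples.

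In the epithelial-mesenchymal transition, epithelial cells lose junctions and polarity and take on the shape and motility of mesenchymal cells. Factors of the SNAIL, ZEB and TWIST families bind E-boxes in the promoters of junction genes such as CDH1 and repress them, while filament, matrix and contractile genes rise. TGF-beta is the best known inducer, acting through SMAD proteins, and the actin-sensitive factor SRF drives ACTA2 and TAGLN through CArG boxes. A549 cells in culture carry epithelial keratins together with vimentin and N-cadherin, and are a common model in which TGF-beta induces the transition.

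Levels are log2 signals as the authors deposited them, and a difference of 1 is a 2-fold change in signal. They compare 1 gene across arrays and not genes with one another. The lower quartile of the arrays lay between 4.77 and 4.94, and SNAI2, ZEB2 and TAGLN in some A549 DMSO arrays sat close above it or at it, where signal above background was not shown. In these bulk samples, fewer cells with a transcript and less of it per cell cannot be told apart.

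Several arrays stood apart from their labels or groups, across all genes. The mean level of 24 genes of G2/M and mitosis, fixed as a list, was 6.84 in A549 DMSO replicate 1 and 9.90 to 10.04 in the other 3 arrays of that group. In AD32 it was 5.31 and 6.22 in replicates 1 and 2 and 9.64 in replicate 3, and in A549 with discodermolide it was 6.66 and 6.86. The array labelled AD32 4E-BP1 lacked levels that all 3 AD32 arrays shared: KRT7 was 7.35 against 11.74 to 11.84, SERPINB5 was 3.92 against 9.49 to 10.83, and MAGEB2 was 3.73 against 9.96 to 10.19. Its correlation over genes was 0.995 with A549 DMSO replicate 2 and 0.932 to 0.979 with the AD32 arrays. Its EIF4EBP1 level was the highest of all arrays at 11.61. KRT7, SERPINB5, MAGEB2 and EIF4EBP1 were chosen for this check after values were seen, from an earlier analysis of these data. A549 DMSO replicates 3 and 4 were nearly identical, with a correlation of 0.997 over genes. The keratins KRT8 and KRT18 were at 12.67 to 13.73 and 13.03 to 14.00 on all 10 arrays, while EPCAM, another epithelial marker, was at 3.30 to 3.87, below the lower quartile. Of 11 genes fixed for the identity of lung epithelial lines, 2 were lower in AD32 than in A549 in DMSO, ALDH1A1 with a difference of -0.94 and AKR1C1 with one of -0.90, where 2.19% of all genes were called lower. The AKR1C1 call was kept in 10 of 20 alternatives and was lost without AD32 replicate 1 or 2, A549 DMSO replicate 2, 3 or 4, or either discodermolide array. AKR1B10 had the largest difference of that list, -2.24, without passing. It was 9.86, 8.39 and 11.71 in AD32 and 11.71 to 12.44 in A549 in DMSO. Also on the list were KRT19 (5.71 to 6.28), SFTPC (5.69 to 6.53) and SFTPB (5.27 to 5.86). NKX2-1 was at 4.58 to 5.11, around the lower quartile. The lists of markers of other cell types were as follows. The mean over 10 fibroblast markers was 4.92 to 5.42, that over 7 leukocyte markers 5.001 to 5.68, and that over 6 endothelial markers 4.40 to 4.76. Of these markers, PTPRC of leukocytes (2.77 to 3.20), DCN of fibroblasts (2.88 to 3.22) and KDR of endothelium (3.81 to 4.32) were below the lower quartile on all arrays. Others were higher, CD68 of the leukocyte list at 8.34 to 10.71 and COL1A1 and COL3A1 of the fibroblast list at 7.69 to 8.16 and 6.001 to 8.78. Also above the lower quartile on all arrays were ITGAM (5.39 to 6.23), CD14 (4.99 to 6.14) and CSF1R (4.84 to 5.50) of the leukocyte list. So were PDGFRB (5.30 to 6.06), THY1 (5.04 to 5.68) and COL1A2 (5.66 to 6.16) of the fibroblast list. CDH5 of the endothelial list was at 4.80 to 5.45. COL3A1 was the 1 of 10 fibroblast markers that was called between AD32 and A549 in DMSO, lower in AD32.

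Each gene was tested with limma over all 10 arrays, and a change was called at a Benjamini-Hochberg adjusted p under 0.05 over the 18279 genes. The 3 comparisons among A549 in DMSO, A549 in discodermolide and AD32 share arrays with one another and are not independent. SNAI2 and ACTA2 rose in both drug-exposed groups against A549 in DMSO, ZEB1 fell in AD32, and TAGLN rose in AD32 by a smaller amount. The other 6 genes passed in none of the comparisons. Where arrays of different groups are said below not to overlap, this describes the levels. The share of all genes without such overlap is not given here.

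In A549 cells exposed to discodermolide, 2 of the 10 genes rose, ACTA2 and SNAI2, and 0 fell. Among all genes tested, 0.372% passed in this comparison, 0.35% as higher and 0.0219% as lower, and 11.1% had an unadjusted p under 0.05. The median difference of the 10 genes was 0.38, against 0.02 over all genes. Neither call held under all alternatives. ACTA2 was called in 12 and SNAI2 in 11 of 20 alternatives, with 0 called under the replicate block, or without either discodermolide array, or without A549 DMSO replicate 2, 3 or 4. SNAI2 was also lost without AD32 replicate 1. The log2 differences kept within 2.61 to 2.85 for ACTA2 and 1.18 to 1.504 for SNAI2.

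In AD32 against A549 in DMSO, SNAI2, ACTA2 and TAGLN rose and ZEB1 fell, 4 of 10 genes, where 5.72% of all genes passed, 3.52% as higher and 2.19% as lower, and 19.7% had an unadjusted p under 0.05. The median of the 10 was -0.0043, against 0.01 over all genes, with 5 of the 10 above 0. SNAI2 was called in all 20 alternatives, ACTA2 and ZEB1 in 19, all but a test against a minimum fold of 1.5. In AD32 against A549 in discodermolide, both in 32 nM of the drug, 1 of 10 genes passed, ZEB1, which was lower in AD32, where 3.74% of all genes passed, 1.28% as higher and 2.46% as lower, and 15.5% had an unadjusted p under 0.05. This call was kept in 13 of 20 alternatives and was lost without AD32 replicate 1, A549 DMSO replicate 4 or either discodermolide array.

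**Figure D1:**
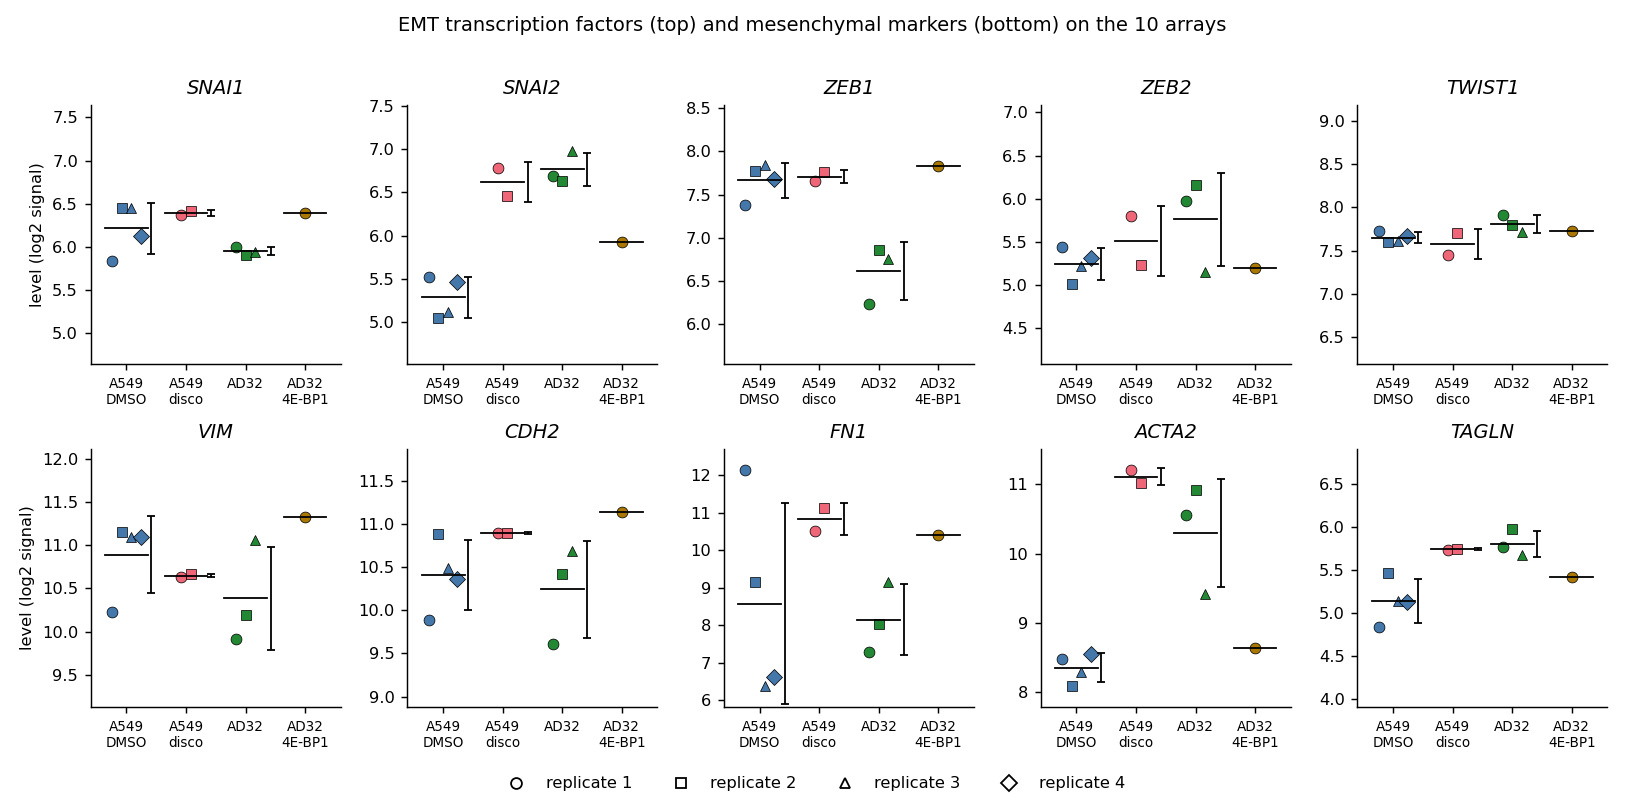
Log2 signal of each of the 10 genes (y axis) on every array of the 4 groups (x axis), with marker shape for the replicate number, a bar at the group mean and an error bar of 1 SD where a group has over 1 array. SNAI2 and ACTA2 of both drug-exposed groups lie above all 4 arrays of A549 in DMSO, ZEB1 is low in the 3 AD32 arrays, and FN1 spans 6.39 to 12.14 within A549 in DMSO.

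Among the transcription factors, SNAI2 (SLUG), a zinc-finger repressor of the SNAIL family, was the one that rose. Its levels in A549 in DMSO were 5.51, 5.04, 5.11 and 5.47. With discodermolide they were 6.79 and 6.46, and in AD32 they were 6.69, 6.63 and 6.98. The 5 drug-exposed arrays all lay above the 4 DMSO arrays. The array labelled AD32 4E-BP1, at 5.92, lay between them. The mean rose from 5.28 ± 0.24 (SD, n = 4) to 6.62 ± 0.23 (SD, n = 2) with discodermolide, a difference of 1.34 (SE 0.19, 95% interval 0.90 to 1.78, limma adjusted p = 0.0296), or 2.53-fold. In AD32 it was 6.77 ± 0.19 (SD, n = 3), a difference of 1.48 from A549 in DMSO (SE 0.17, 95% interval 1.10 to 1.87, limma adjusted p = 0.00161), or 2.80-fold. AD32 and A549 in discodermolide were not told apart, with a difference of 0.14 and a 95% interval of -0.32 to 0.61. AD32 replicate 3, with a mitotic level near that of A549 in DMSO, had the highest SNAI2 of all arrays. A549 DMSO replicate 1, with a low mitotic level, had the highest of its group and lay below every drug-exposed array. What part the mitotic level has in the SNAI2 values was not tested.

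ZEB1, a zinc-finger and homeodomain repressor of CDH1, moved the other way, and in AD32. Its levels in AD32 were 6.23, 6.86 and 6.76. In A549 in DMSO they were 7.38, 7.78, 7.84 and 7.68, and with discodermolide 7.65 and 7.76. The 3 AD32 arrays lay below all 7 others. The AD32 mean of 6.62 ± 0.34 (SD, n = 3) differed by -1.05 from the 7.67 ± 0.20 (SD, n = 4) of A549 in DMSO (SE 0.18, 95% interval -1.46 to -0.64, limma adjusted p = 0.0114), a 2.07-fold lower signal. Against A549 in discodermolide, at 7.71 ± 0.08 (SD, n = 2), the difference was -1.09 (SE 0.22, 95% interval -1.58 to -0.60, limma adjusted p = 0.0277). Discodermolide in A549 gave a ZEB1 difference of 0.04, with a 95% interval of -0.42 to 0.51. The array labelled AD32 4E-BP1 had 7.83, close to the A549 arrays. AD32 replicate 3, with a mitotic level of 9.64, had 6.76, and replicates 1 and 2, with mitotic levels of 5.31 and 6.22, had 6.23 and 6.86. The part of the mitotic level in the ZEB1 values was not tested.

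The other 3 factors gave no call. ZEB2, the second ZEB repressor, was 5.44, 5.01, 5.21 and 5.31 in A549 in DMSO, 5.79 and 5.23 with discodermolide, and 5.98, 6.16 and 5.15 in AD32. AD32 replicate 3 and 1 discodermolide array lay within the DMSO range, so the groups overlapped. The AD32 difference from A549 in DMSO was 0.52 (95% interval -0.06 to 1.09, limma adjusted p = 0.311), and it was 0.82 (adjusted p = 0.0333) without AD32 replicate 3, the array with the high mitotic level. Over all alternatives that adjusted p ran from 0.00579 to 1. SNAI1 (SNAIL), the founding factor of the family, kept within 5.84 to 6.45 on all arrays. It was 5.91 to 6.002 in AD32, and 6.36 and 6.42 with discodermolide. Its AD32 difference from A549 in DMSO was -0.27 (95% interval -0.64 to 0.11), and from A549 in discodermolide -0.44 (95% interval -0.88 to 0.0028). TWIST1, a basic helix-loop-helix factor, varied least of the 10, from 7.45 to 7.92. Its differences were -0.07 (95% interval -0.38 to 0.23) with discodermolide and 0.16 (95% interval -0.11 to 0.43) in AD32.

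ACTA2, the smooth muscle actin of contractile and myofibroblast cells, had the largest called differences of the 10 genes. Its levels in A549 in DMSO were 8.48, 8.09, 8.29 and 8.56. With discodermolide they were 11.21 and 11.02, and in AD32 they were 10.56, 10.93 and 9.42. The array labelled AD32 4E-BP1 was at 8.64, just above the DMSO arrays. Every drug-exposed array lay above every array in DMSO, and AD32 replicate 3 was the lowest of the drug-exposed. The mean rose from 8.35 ± 0.21 (SD, n = 4) to 11.11 ± 0.13 (SD, n = 2) with discodermolide, a difference of 2.76 (SE 0.36, 95% interval 1.96 to 3.56, limma adjusted p = 0.0190), or 6.78-fold. In AD32 it was 10.30 ± 0.78 (SD, n = 3), a difference of 1.95 (SE 0.31, 95% interval 1.24 to 2.66, limma adjusted p = 0.00834), or 3.86-fold. AD32 was 0.81 below A549 in discodermolide without passing (95% interval -1.66 to 0.03 for the difference, adjusted p = 0.352). A549 DMSO replicate 1 shared the low mitotic level of the discodermolide arrays and had an ACTA2 level inside the range of its own group. How far ACTA2 varies with the mitotic level was not tested. The AD32 difference was 2.39 (5.23-fold, adjusted p = 1.61e-04) without AD32 replicate 3, and the adjusted p lay between 9.32e-06 and 0.0819 over the alternatives.

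The ACTA2 promoter is shown because ACTA2 had the largest of the called differences and its CArG boxes are known SRF sites. RefSeq gives the gene 2 start windows on GRCh38.p14, each of 250 bases before the start and 50 from it on. The printed 250 bases before the start, chr10:88952774-88953023 on the minus strand, belong to the start that lies farther along the gene. Capitals mark CArG boxes with at most 1 mismatch in their A/T core, CCCTATATGG, which begins 121 bases before the start, and CCTTGTTTGG, which begins 71 bases before it.
ACTA2: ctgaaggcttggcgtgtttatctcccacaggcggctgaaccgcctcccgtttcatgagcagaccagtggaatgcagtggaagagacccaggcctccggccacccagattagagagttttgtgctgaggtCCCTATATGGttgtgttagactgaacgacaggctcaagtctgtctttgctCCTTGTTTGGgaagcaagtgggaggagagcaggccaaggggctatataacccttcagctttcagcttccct
The motif reads the same on both strands, and the 2 boxes do not overlap. Such a box occurs in 8.13% of 35116 RefSeq windows and in 9.88% of 27305 genes, and the CArG box without mismatch in 1.29% of windows. ACTA2 is a textbook SRF target, so finding the boxes there is no result. Of the 10 genes followed, 6 had a window, and ACTA2 was the one with such a box, in 1 of its 2 windows. No array measured binding at these letters.

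TAGLN (transgelin, SM22), an actin-binding protein of smooth muscle and another SRF target, rose less. Its levels were 4.84, 5.47, 5.14 and 5.13 in A549 in DMSO, 5.74 and 5.75 with discodermolide, and 5.77, 5.97 and 5.68 in AD32. The drug-exposed arrays again lay above all 4 DMSO arrays, by a small gap. The AD32 mean of 5.81 ± 0.15 (SD, n = 3) was 0.66 above the 5.15 ± 0.26 (SD, n = 4) of A549 in DMSO (SE 0.16, 95% interval 0.30 to 1.02, limma adjusted p = 0.0455), or 1.58-fold. This call was kept in 8 of the 19 alternatives that gave a value and was lost without AD32 replicate 1 or 2, A549 DMSO replicate 3 or 4, or either discodermolide array, and its adjusted p was 0.0963 with the replicate number as a block. With discodermolide the difference was 0.60 (95% interval 0.19 to 1.01, limma adjusted p = 0.253) and did not pass.

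**Figure D2:**
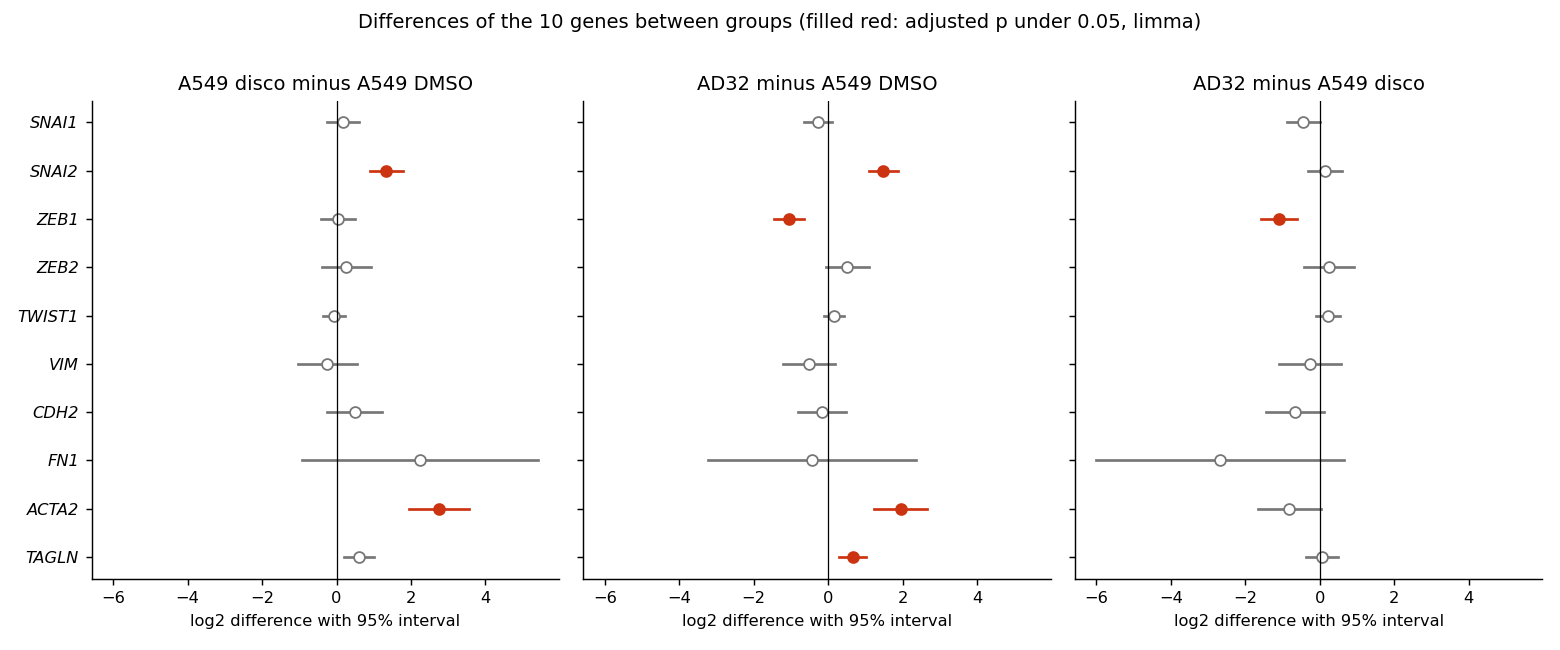
Log2 differences of the 10 genes (x axis, point and 95% interval) in the comparisons among A549 in DMSO, A549 in discodermolide and AD32, with calls at adjusted p under 0.05 filled. ACTA2 and SNAI2 are called higher in both drug-exposed groups against DMSO, ZEB1 is called lower in AD32 in both of its comparisons, and the FN1 intervals are the widest.

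VIM (vimentin), the intermediate filament of mesenchymal cells, did not pass in any comparison. Its levels were 10.22, 11.15, 11.10 and 11.09 in A549 in DMSO, 10.63 and 10.66 with discodermolide, 9.91, 10.19 and 11.06 in AD32, and 11.33 on the array labelled AD32 4E-BP1. On the 5 arrays with a mean mitotic level under 7, VIM was 9.91 to 10.66, and on the other 5 it was 11.06 to 11.33, with no overlap. Each of the other followed genes overlapped between these sets of arrays. The share of all genes without overlap at this split is not given here. The AD32 difference from A549 in DMSO was -0.51 (95% interval -1.20 to 0.19, limma adjusted p = 0.434). Without A549 DMSO replicate 1 and AD32 replicate 3, the arrays whose mitotic level differed from their groups, it was -1.06 (adjusted p = 3.48e-04, with a range of 3.48e-04 to 1 over all alternatives). The part of the mitotic level in the VIM values was not tested.

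CDH2 (N-cadherin), the cadherin that replaces E-cadherin in the transition, was high on all arrays and passed nowhere. It was 9.89, 10.89, 10.49 and 10.37 in A549 in DMSO, 10.89 and 10.90 with discodermolide, and 9.61, 10.43 and 10.69 in AD32. The lowest array of the DMSO group was again replicate 1, and the highest array of AD32 was replicate 3. The differences from A549 in DMSO were 0.49 (95% interval -0.25 to 1.23) with discodermolide and -0.17 (95% interval -0.82 to 0.48) in AD32. With 1 array left out the AD32 difference ranged from -0.39 to 0.15, turning positive without AD32 replicate 1.

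FN1 (fibronectin), an adhesive matrix glycoprotein, varied most of the 10 genes. In A549 in DMSO it was 12.14, 9.17, 6.39 and 6.63, so 1 group held both the highest and the lowest array of the series. With discodermolide it was 10.53 and 11.13, in AD32 it was 7.28, 8.03 and 9.16, and on the array labelled AD32 4E-BP1 it was 10.42. The DMSO mean of 8.58 ± 2.69 (SD, n = 4) left wide intervals. The difference was 2.25 (95% interval -0.92 to 5.41, limma adjusted p = 0.619) with discodermolide and -0.42 (95% interval -3.22 to 2.37) in AD32. The AD32 difference had no settled direction, since it turned positive without A549 DMSO replicate 1 or without AD32 replicate 1 and ranged from -1.16 to 0.76 with 1 array left out. Without A549 DMSO replicate 1 and AD32 replicate 3 the discodermolide difference was 3.43 (10.8-fold, adjusted p = 0.00852, with a range of 0.00259 to 1 over all alternatives). Without A549 DMSO replicate 1 alone it was also 3.43, with an adjusted p of 0.0582.

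**Figure D3:**
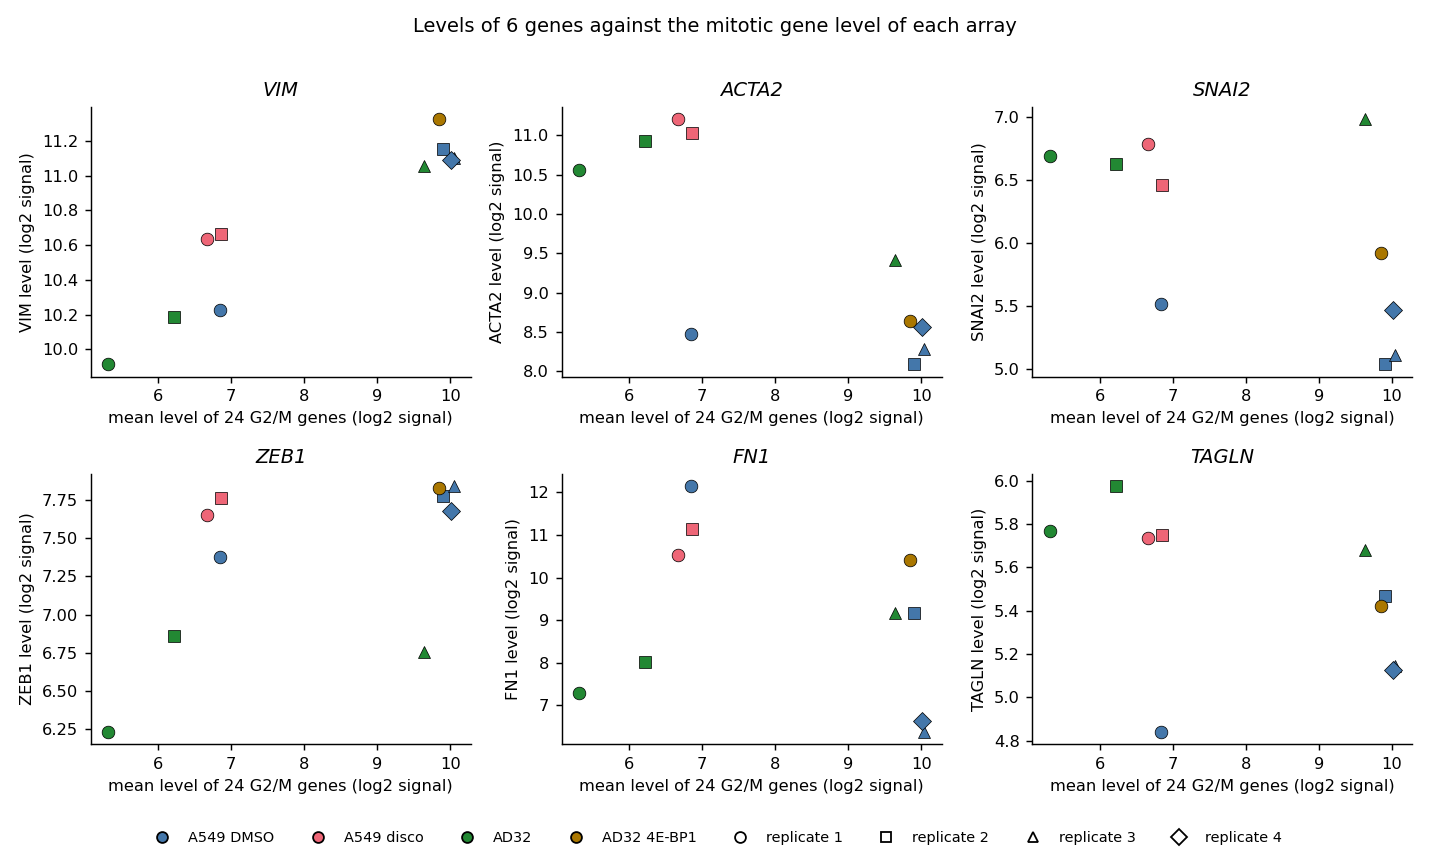
Log2 signal of 6 of the genes (y axis) against the mean log2 signal of 24 G2/M genes on the same array (x axis), 1 point per array, coloured by group and shaped by replicate. VIM separates into arrays of low and high mitotic level, and the share of all genes that do so is not given here. ZEB1 is low in AD32 at both levels. ACTA2 is low in A549 DMSO replicate 1, whose mitotic level of 6.84 is close to that of the discodermolide arrays. In AD32 it is 9.42 in replicate 3, with a mitotic level of 9.64, and 10.56 and 10.93 in replicates 1 and 2. What part the mitotic level has in these values was not tested.

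On the array labelled AD32 4E-BP1, 0 of the 10 genes passed against AD32 by limma, where 0.919% of all genes passed (0.339% as higher, 0.58% as lower). An unadjusted p under 0.05 was found for 3 of the 10 and for 9.46% of all genes. ZEB1 was 1.21 higher (adjusted p = 0.115), ACTA2 differed by -1.66 (adjusted p = 0.223) and SNAI2 by -0.85 (adjusted p = 0.270). Without A549 DMSO replicate 1 and AD32 replicate 3, 5 passed, namely ZEB1, VIM and CDH2 higher and ACTA2 and ZEB2 lower. Against A549 in DMSO, limma called 0 of the 10 genes and 0% of all genes, and SNAI2 alone had an unadjusted p under 0.05, with a difference of 0.64 (95% interval 0.07 to 1.20, adjusted p = 1.00). At unadjusted p under 0.05 stood 1.14% of all genes. This lone array has no replicate and was assumed to vary like the other groups. It was in DMSO while AD32 was in the drug, so line, drug and label cannot be told apart in the first of these comparisons.

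Epithelial genes that SNAIL, ZEB or TWIST factors are known to repress were taken as a list of 22 measured genes. In AD32 against A549 in DMSO, 5 of the 22 rose and 0 fell, where 3.52% of all genes passed as higher, and the median of the list was 0.35 against 0.01 over all genes. At unadjusted p under 0.05, 10 were higher and 0 lower, where 19.7% of all genes passed that limit in either direction. With discodermolide, limma called 0 of 22. At unadjusted p under 0.05, 3 were higher and 0 lower, near the 11.1% of all genes that passed that limit. In AD32 against A549 in discodermolide PKP2 alone was called, 1.17 higher (adjusted p = 0.0338). That is 4.55% of the list, near the 3.74% of all genes. The PKP2 call was kept in 10 of 20 alternatives and lost without either discodermolide array. At unadjusted p under 0.05, 6 of the 22 were higher and 0 lower in this comparison, where 15.5% of all genes passed that limit in either direction.

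CDH1 (E-cadherin), the adherens junction cadherin whose loss defines the transition, was 9.53, 8.46, 8.83 and 8.87 in A549 in DMSO, 10.01 and 9.67 with discodermolide, and 9.89, 10.40 and 9.81 in AD32. All 5 drug-exposed arrays lay above the arrays of A549 in DMSO, and the share of all genes that do so is not given here. The AD32 difference was 1.11 (95% interval 0.54 to 1.69, limma adjusted p = 0.0357), a call kept in 8 of 20 alternatives and lost without any 1 of 7 arrays (AD32 replicate 1 or 2, A549 DMSO replicate 2, 3 or 4, either discodermolide array), and that with discodermolide was 0.92 (95% interval 0.27 to 1.57, adjusted p = 0.276). Of the desmosome genes, PKP2, JUP and DSP rose, while PKP3 differed by 0.57 without passing (adjusted p = 0.143). PKP2 (plakophilin 2) was 8.14, 8.61, 8.14 and 8.20 in A549 in DMSO and 9.91, 9.92 and 10.63 in AD32, a difference of 1.88 (SE 0.20, limma adjusted p = 0.00120). JUP (plakoglobin), which links cadherins to filaments, was 9.89, 9.17, 8.48 and 8.52 against 10.72, 10.53 and 10.59, a difference of 1.60 (SE 0.32, adjusted p = 0.0196) that did not pass without AD32 replicate 1 or 2 or A549 DMSO replicate 3 or 4. DSP (desmoplakin) was 8.61, 9.22, 8.57 and 8.56 against 9.67, 10.19 and 9.90, a difference of 1.18 (SE 0.20, adjusted p = 0.00978). For CDH1, PKP2, JUP and DSP the AD32 arrays lay above all A549 DMSO arrays. The PKP3 levels overlapped, with 7.60 in AD32 replicate 2 and 7.75 in A549 DMSO replicate 1. The fifth call, the tight junction gene CLDN1, was outside the rule for named genes and is given after its value was seen, with a difference of 1.10 (adjusted p = 0.0389), kept in 9 of 20 alternatives. The mitotic level of AD32 replicate 3 differed from its group, and its PKP2 level was the highest of the 10 arrays. A link between these was not tested.

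The promoters of DSP and JUP are shown as examples of called epithelial genes with E-boxes of the kind that SNAIL and ZEB factors bind. They were picked for holding the motif, so its presence in them is no result. Whether any of these factors acts on DSP or JUP in these cells was not tested. Capitals mark CAGGTG or its other strand CACCTG. The 250 bases before the start lie at chr6:7541421-7541670 on the plus strand for DSP and at chr17:41785977-41786226 on the minus strand for JUP, from RefSeq on GRCh38.p14.
DSP: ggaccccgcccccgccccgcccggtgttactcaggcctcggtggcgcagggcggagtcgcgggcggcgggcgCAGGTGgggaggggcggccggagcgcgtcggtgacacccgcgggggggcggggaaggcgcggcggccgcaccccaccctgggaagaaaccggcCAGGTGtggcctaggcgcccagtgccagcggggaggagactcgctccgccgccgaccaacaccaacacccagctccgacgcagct
JUP: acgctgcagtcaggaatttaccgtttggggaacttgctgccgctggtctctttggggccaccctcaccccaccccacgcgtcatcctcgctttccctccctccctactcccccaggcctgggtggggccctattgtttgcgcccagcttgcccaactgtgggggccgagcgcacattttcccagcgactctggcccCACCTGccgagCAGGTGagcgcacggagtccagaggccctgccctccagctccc
The E-boxes begin 178 and 85 bases before the start in DSP and 54 and 43 in JUP, and the other JUP window holds none. Of the 22 measured and 2 further genes of the epithelial list, 13 had a window and 11 of these held the motif, while 24.1% of 27305 genes and 20.6% of windows did. The list was made of genes known for such repression, so this share is a description. A match shows the letters and not binding. Of the 6 followed genes with a window, ZEB1 was the one with an E-box, in 2 of its 7 windows. SNAI1, SNAI2, TWIST1, TAGLN, CDH1 and PKP2 had no window in the sequences used and are named without a promoter.

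**Figure D4:**
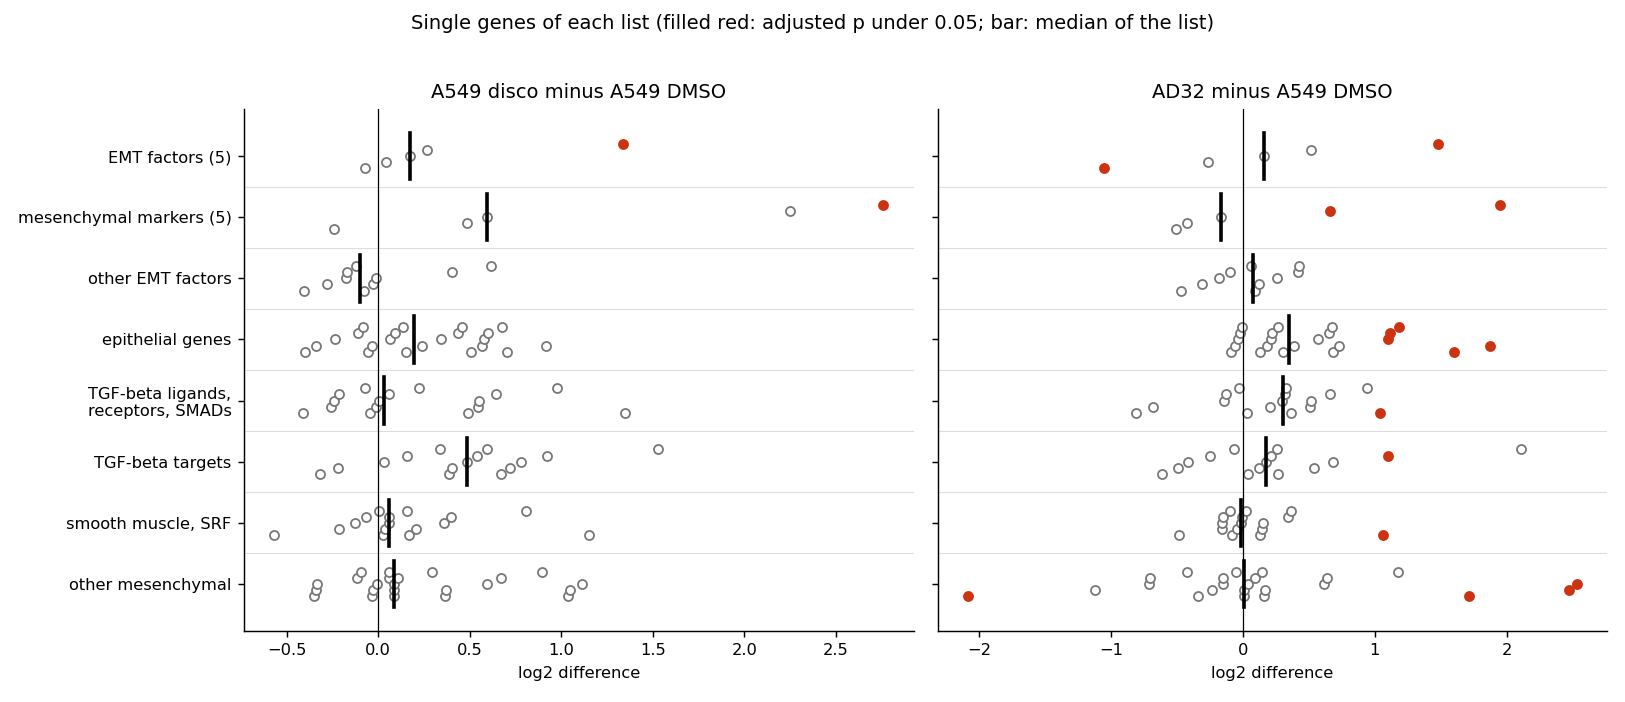
Log2 differences (x axis) of single genes in the 10 genes, split into factors and markers, and in 6 other fixed lists (rows), for A549 in discodermolide and for AD32, both against A549 in DMSO, with the list median as a bar and calls at adjusted p under 0.05 filled. In AD32 the 5 filled epithelial genes all lie to the right of 0, and with discodermolide the filled points are SNAI2 and ACTA2.

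In the pathway that acts above these factors, the share of called genes in AD32 against A549 in DMSO was near that of all genes. The share at unadjusted p under 0.05 was larger than over all genes. Of 16 TGF-beta ligands, receptors and SMADs, 1 rose in AD32 against A549 in DMSO, ACVR1, a type I receptor for activins and bone morphogenetic proteins, by 1.04 (limma adjusted p = 0.0122), which is 6.25% of the list, against 5.72% called over all genes. At unadjusted p under 0.05, 6 were higher and 2 lower, together 8 of 16, where 19.7% of all genes passed that limit. With discodermolide limma called 0 of the 16. At unadjusted p under 0.05, 4 were higher and 0 lower, where 11.1% of all genes passed that limit. TGFB1, a ligand of the list, was 10.27, 10.38, 9.70 and 9.63 in A549 in DMSO, 10.57 and 10.51 with discodermolide, and 9.10, 8.55 and 9.90 in AD32. Its AD32 differences were -0.81 from A549 in DMSO (adjusted p = 0.189) and -1.36 from A549 in discodermolide (adjusted p = 0.0916), and neither passed. Without AD32 replicate 3, the array with the high mitotic level, they were -1.17 and -1.71 and both passed (adjusted p = 0.0254 and 0.0138). Over all alternatives the adjusted p of these differences spanned 0.00801 to 1 and 0.00218 to 0.996. The ligand TGFB2, outside the rule for named genes, is given after its values were seen. It was 10.48, 9.53, 9.16 and 9.09 in A549 in DMSO, 11.02 and 10.81 with discodermolide, and 9.71, 9.32 and 9.23 in AD32. TGFB2 differed by 1.35 with discodermolide and by -1.49 between AD32 and A549 in discodermolide, and was called in no comparison. SMAD4, the common partner of the SMADs, was 0.75 higher in AD32 than in A549 in discodermolide (adjusted p = 0.0413). That call was kept in 7 of 20 alternatives and was lost without either discodermolide array. Of 15 TGF-beta target genes, 1 rose in AD32 against A549 in DMSO, the latent TGF-beta binding protein LTBP2, by 1.10 (adjusted p = 0.0196), which is 6.67% of that list. Of the 15, 3 were higher and 2 lower in AD32 at unadjusted p under 0.05, where 19.7% of all genes passed that limit. With discodermolide limma called 0 of 15, and 3 were higher and 0 lower at unadjusted p under 0.05, where 11.1% of all genes passed.

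Beyond ACTA2 and TAGLN, 16 contractile genes of smooth muscle and other SRF targets were measured. Of these, 1 rose in AD32 against A549 in DMSO, FHL2, a LIM-domain cofactor, by 1.06 (limma adjusted p = 0.0215), which is 6.25% of the list, near the 5.72% of all genes. The differences ran from -0.48 to 1.06, with a median of -0.01. With discodermolide limma called 0 of 16, and FHL2 differed by 1.15 (adjusted p = 0.0987). At unadjusted p under 0.05 FHL2 alone was higher and 0 were lower, where 11.1% of all genes passed that limit. SRF itself was 7.96 to 8.57 in A549 in DMSO, 8.63 and 8.65 with discodermolide and 8.24 to 8.82 in AD32. Its differences from A549 in DMSO were 0.40 (95% interval -0.09 to 0.88) and 0.36 (95% interval -0.06 to 0.79).

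Of 23 other mesenchymal and matrix genes, 3 rose and 1 fell in AD32 against A549 in DMSO, where 3.52% of all genes rose and 2.19% fell. At unadjusted p under 0.05, 5 were higher and 4 lower, together 9 of 23, where 19.7% of all genes passed that limit. TNC (tenascin C), a matrix protein of wounds and tumours, was 5.01, 4.85, 4.77 and 4.57 in A549 in DMSO and 7.81, 7.79 and 6.40 in AD32, a difference of 2.53 (SE 0.32, limma adjusted p = 0.00268). Its DMSO levels were at the lower quartile of the arrays. FBN1 (fibrillin 1), the core of microfibrils, rose by 2.48 (adjusted p = 7.14e-04), and SERPINE2, a secreted protease inhibitor, by 1.72 (adjusted p = 0.00793). COL3A1, a fibrillar collagen of fibroblasts, fell by 2.08 (adjusted p = 0.00789), from 7.62, 8.10, 8.68 and 8.78 to 6.52, 6.001 and 6.13. Against A549 in discodermolide TNC and FBN1 were higher in AD32, by 2.57 and 1.44, and COL3A1 and the mesenchymal cadherin CDH11 lower, by differences of -1.75 and -2.17 (adjusted p = 0.00785, 0.0326, 0.0471 and 0.0164). These were 4 of 23 genes, where 3.74% of all genes passed. Each of these 4 calls was lost without discodermolide replicate 2, and those of TNC, FBN1 and COL3A1 also without replicate 1. Those of CDH11, FBN1 and COL3A1 were lost without AD32 replicate 1 or 2 as well. COL3A1 was further lost without AD32 replicate 3 or A549 DMSO replicate 2, 3 or 4, and was kept in 7 of 20 alternatives. FBN1 was also lost without A549 DMSO replicate 3. The CDH11 signal was 2.70-fold lower in AD32 without discodermolide replicate 2 and 7.51-fold lower without discodermolide replicate 1, against 4.50-fold with both. The 2 CDH11 levels with discodermolide were far apart, 6.89 and 8.37. On the array labelled AD32 4E-BP1, TNC was 4.53, below the lower quartile of that array. With discodermolide limma called 0 of the 23. At unadjusted p under 0.05, 5 were higher and 1 lower, where 11.1% of all genes passed that limit. Of 10 other EMT-inducing factors, limma called 0 in any comparison, and the unadjusted p was under 0.05 for 1 of them, lower with discodermolide.

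The genes whose levels ran most nearly parallel to the called ones were listed over the 10 arrays, as a description. For ACTA2 these were CYGB (cytoglobin), RUSC2 and INPP5D, with Pearson r of 0.980, 0.979 and 0.974. For SNAI2 they were RBPMS2, DDB2, a DNA-damage recognition factor, and ELFN2, with r of 0.969, 0.961 and 0.946. DDB2 was 8.77 to 8.86 in A549 in DMSO, 9.73 and 9.79 with discodermolide and 10.03 to 10.15 in AD32. For ZEB1 they were ZMYND11, POGLUT1 and UBXN2B, with r of 0.992, 0.985 and 0.984, and for TAGLN RUNDC1, TRMT44 and STK38, with r of 0.965, 0.963 and 0.957. The 10 arrays share lines, drug and processing, and these were picked as the highest of all genes.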

How the data were processed

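Total RNA of 10 cell cultures was hybridised to Affymetrix arrays, 1 array per sample. The authors deposited values that were read as log2 signals from their range. The submitters' processing notes name Affymetrix Expression Console as the tool; not given in the sources used here were the version, the summarisation and the normalization. Of 24308 probe sets, the platform annotation gave 1 gene to 19262 and several to 1720, and 3326 were unnamed in the table used. Where a gene had over 1 probe set (740 of 18279 genes), the one with the highest mean was used. ZEB2 was the 1 followed gene with a second probe set, at 2.41 to 2.95.

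Tests used limma 3.58.1 in R 4.3.3 (lmFit and eBayes, two-sided) on the deposited values of all 10 arrays, with 1 mean per group and 6 residual degrees of freedom. P-values were adjusted over all 18279 genes, with a threshold of 0.05. No set test was run. Intervals are at 95%. The fit was tested on simulated data with noise drawn separately for each gene and array. Shifts shared by many genes of an array were not simulated. The files give no detection call, and the number of arrays limits the precision.

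The 10 genes, the 11 other lists and the promoter motifs were chosen with earlier results of these data known, so counts over a list describe it. Named beside the 10 genes were, per list, up to 4 called genes with the smallest p in each of the 3 comparisons without AD32 4E-BP1, CDH1, TGFB1 and SRF whatever their result, and the 3 genes most correlated with each called one. Listed genes without a probe set of their own were not analysed here. The alternatives tried were array weights, median centring, another quantile normalization, a filter on the lowest genes by mean, a robust prior with trend, the mean over probe sets, a fit without the groups outside a comparison, a block for the replicate number, a minimum fold of 1.5, the removal of each array, and the average of A549 DMSO replicates 3 and 4. Leaving out both A549 DMSO replicate 1 and AD32 replicate 3 was added after seeing the data. Figures used Python 3.11.15 and matplotlib 3.10.9.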

Additional observations from a re-analysis of the deposited data

Results flagged for a closer look

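VIM in A549 DMSO replicate 1 was 10.22, whereas the other 3 arrays of that group were at 11.09 to 11.15. The gap to the nearest of the others was 0.934 of the range of the group, above Dixon's 95% critical value for 4 arrays. The mean of the 24 G2/M and mitosis genes on the same array was 6.84, against 9.90 to 10.04 on the others, with a gap of 0.956 of the range. Of 11 groups of values tested this way, chance alone would single out about 1 in 20.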

How the results depend on the processing

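No called difference of the 10 genes changed sign under any alternative. For discodermolide against DMSO in A549, the 2 calls became 4 with array weights (ACTA2, SNAI2, FN1 and TAGLN) and 0 with the replicate block, with A549 DMSO replicates 3 and 4 averaged, or at a minimum fold of 1.5. They ranged from 0 to 2 with 1 array left out. For AD32 against A549 in DMSO, the 4 calls became 1 at a minimum fold of 1.5 and ranged from 3 to 5 with 1 array left out. For AD32 against A549 in discodermolide, the 1 call became 0 with the compared groups alone, with replicates 3 and 4 averaged or at the minimum fold, and ranged from 0 to 1 with 1 array left out. For AD32 4E-BP1 against AD32, the 0 calls became 3 with array weights, and 1 without AD32 replicate 3, in a range of 0 to 1 with 1 array left out. Leaving out both A549 DMSO replicate 1 and AD32 replicate 3, chosen after seeing the data, gave 3, 6, 3 and 5 calls in these comparisons, in that order. Against A549 in DMSO, AD32 4E-BP1 had 0 calls throughout, and without its only array these comparisons have no value.

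Over all genes, the counts were 68 (lowest 4, highest 4573 under the alternatives), 1045 (166 to 5164), 683 (132 to 2769), 168 (13 to 3005) and 0 (0 to 3). The replicate numbers were not taken to pair samples. Deviations of same-numbered AD32 and A549 DMSO arrays correlated at 0.677, -0.264 and 0.411. With the replicate block, fitted on the 9 numbered arrays, the calls were 0, 3 and 1, and AD32 4E-BP1, without a number, could not be fitted. The filter on the lowest genes by mean left out TAGLN and ZEB2. In AD32 against A549 in DMSO, LTBP2 was called in 14 and FHL2 in 12 of 20 alternatives, and both were lost without AD32 replicate 1 or without A549 DMSO replicate 2, 3 or 4. Signals near the lower quartile of the arrays (4.77 to 4.94) limit what the levels of SNAI2, ZEB2, TAGLN and TNC in A549 in DMSO can show.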
